A study of Mus musculus with 87 samples.

Results

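The genes described here encode the respiratory chain and ATP synthase of mouse liver, and they come from both genomes of the cell, the nucleus and the mitochondrion. Members were chosen by name and by level from a deposited table of log2 RPKM (read counts divided by transcript length and by the mapped reads of the library). The rule took protein-coding genes whose symbol begins with Nduf, Uqcr, Atp5 or mt-, Cox4 to Cox8, or is Sdha, Sdhb, Sdhc or Sdhd, and kept those above −1.5 (log2 RPKM) in 1 or more libraries. It matched 104 names and left 99 members, 86 nuclear and 13 mt-, out of 15396 genes above the same threshold and 37991 genes in the table. The study followed liver regeneration after partial hepatectomy (PH), the surgical removal of most of the liver, in male C57BL/6 mice aged 12 to 14 weeks at surgery. The mice had been entrained to a 12 h light and 12 h dark cycle with food in the dark phase only, and surgery was at Zeitgeber time (ZT) 2, where ZT0 is lights on. Poly(A)-selected RNA of individual livers was sequenced, so each library is 1 animal. No mouse carried an engineered allele.

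The groups are named by treatment and by hours or weeks (W) after surgery. Unoperated livers were C0 (n = 9, ZT2), C4 (n = 3, ZT6) and C4W (n = 2). Sham-operated livers, in which the abdomen was opened and no liver was removed, were S1 (n = 6), S4 (n = 5), S10 (n = 3), S20 (n = 3) and S48 (n = 3). Livers after PH were X1 (n = 6), X4 (n = 3), X10 (n = 6), X20 (n = 6), X28 (n = 3), X36 (n = 6), X44 (n = 3), X48 (n = 5), X72 (n = 3), X1W (n = 3) and X4W (n = 2). Livers of X1 and S1 were taken at ZT3, those of X4, S4 and X28 at ZT6 and those of X10 and S10 at ZT12. Those of X20, S20 and X44 were taken at ZT22, those of X36 at ZT14 and those of X48, S48 and X72 at ZT2. No ZT was derived for X1W, X4W and C4W. Comparisons with C0 of groups taken at another ZT therefore span different times of day, which comparisons of PH with sham at the same hour do not.

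As background, complexes I, III and IV pass electrons from NADH to oxygen and pump protons out of the mitochondrial matrix, complex II feeds in electrons from succinate, and complex V, the ATP synthase, uses the proton gradient to make ATP. All but complex II are built from subunits of both genomes. The mitochondrial genes are read as long transcripts from both strands of a small circular genome, cut at the transfer RNAs between them and polyadenylated inside the organelle, whereas the nuclear genes are transcribed one by one and their proteins imported. Hepatocytes are rich in mitochondria, and a regenerating liver must keep making ATP while its cells divide.

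Some mt- messages end without a whole stop codon, which the poly(A) tail then completes. The last 30 bases of 5 of the 13 coding sequences are shown because their levels relative to each other are described below. They were read from mm9 on the strand of the gene, with the letters of the stop in capitals. They are mt-Nd1 (chrM:2751-3707), mt-Nd5 (chrM:11742-13565), mt-Co3 (chrM:8607-9390), mt-Nd4 (chrM:10167-11544) and mt-Cytb (chrM:14145-15288), and the last 3 of them end in 1 letter of the stop.
mt-Nd1: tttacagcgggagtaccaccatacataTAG
mt-Nd5: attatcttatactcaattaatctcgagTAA
mt-Co3: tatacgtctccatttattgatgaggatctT
mt-Nd4: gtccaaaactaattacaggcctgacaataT
mt-Cytb: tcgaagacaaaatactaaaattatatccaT

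The nuclear genome holds a copy of part of the mitochondrial genome, and a short read from the copied part cannot be assigned to either place. In mm9 the copy is a block of 4654 bases on chromosome 1 (chr1:24618374-24623027, minus strand). Of the 13 mt- members, 8 matched it over 100 or more bases at 98% identity or more, and 6 of them over more than 90% of their length. The other 5, mt-Nd1, mt-Nd2, mt-Nd5, mt-Nd6 and mt-Cytb, had no such match. The copied end of mt-Co1, the catalytic subunit of complex IV, differed from chromosome 1 in 1 of 483 bases, and the stretch with that base is shown with it in capitals (chrM:6390-6413 and chr1:24623004-24623027).
mt-Co1: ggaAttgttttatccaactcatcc
chromosome 1 copy: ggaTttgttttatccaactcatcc

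The authors counted a read with several positions as a fraction at each, so the copied genes share reads with the block. The table lists 2 protein-coding genes in the block, Gm10925, with a mean of 13.79 (log2 RPKM) over the 80 libraries, and Gm10222, with 12.08. The level of Gm10925 lay 0.50 (log2) above that of mt-Atp6 and that of Gm10222 1.53 above that of mt-Nd4l, and how the reads divide between these genes is uncertain. mt-Atp8 overlaps mt-Atp6 and mt-Nd4l overlaps mt-Nd4 on the same strand, so the values of these short genes (204 and 297 bases) are uncertain too. Of the nuclear members, 19 of 86 had a near-identical stretch elsewhere in the genome, over more than 90% of the length in Atp5g2, Atp5l, Atp5l-ps1 and Uqcrb.

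Promoters of the nuclear members are shown for 4 genes whose values are described below, Ndufa6 and Sdhb among those that were lower after surgery and Ndufaf4 and Cox6b2 among those that were higher. RefSeq promoters of GRCm38.p6, from 250 bases before to 50 bases after the start, were matched to 69 of the 86 nuclear members. They were searched on both strands for 3 words bound by factors known from respiratory genes, CCGGAAG (ETS family, which includes GABP), GCATGCGC (NRF1) and AAGATGGC (YY1). The positions are chr15:82354242-82354541 (minus strand) for Ndufa6, chr4:140961021-140961320 (plus) for Sdhb, chr4:24897833-24898132 (plus) for Ndufaf4 and chr7:4753045-4753344 (minus) for Cox6b2. Capitals mark the words found.
Ndufa6: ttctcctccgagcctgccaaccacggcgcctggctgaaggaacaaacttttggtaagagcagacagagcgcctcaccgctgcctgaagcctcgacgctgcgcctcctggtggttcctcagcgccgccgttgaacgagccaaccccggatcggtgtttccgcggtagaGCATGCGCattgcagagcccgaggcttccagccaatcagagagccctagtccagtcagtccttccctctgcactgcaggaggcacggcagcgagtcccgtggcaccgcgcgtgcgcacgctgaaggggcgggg
Sdhb: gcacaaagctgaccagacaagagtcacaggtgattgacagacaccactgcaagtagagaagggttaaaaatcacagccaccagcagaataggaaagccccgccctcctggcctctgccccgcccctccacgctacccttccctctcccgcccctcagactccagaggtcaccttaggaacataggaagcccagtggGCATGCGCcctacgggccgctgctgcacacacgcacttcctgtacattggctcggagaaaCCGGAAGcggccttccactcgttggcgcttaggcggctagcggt
Ndufaf4: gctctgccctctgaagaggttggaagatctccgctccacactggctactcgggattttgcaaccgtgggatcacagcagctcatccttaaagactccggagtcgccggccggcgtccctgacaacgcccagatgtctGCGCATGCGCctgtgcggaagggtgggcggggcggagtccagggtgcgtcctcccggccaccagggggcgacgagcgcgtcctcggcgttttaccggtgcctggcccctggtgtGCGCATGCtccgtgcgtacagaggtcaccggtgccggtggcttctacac
Cox6b2: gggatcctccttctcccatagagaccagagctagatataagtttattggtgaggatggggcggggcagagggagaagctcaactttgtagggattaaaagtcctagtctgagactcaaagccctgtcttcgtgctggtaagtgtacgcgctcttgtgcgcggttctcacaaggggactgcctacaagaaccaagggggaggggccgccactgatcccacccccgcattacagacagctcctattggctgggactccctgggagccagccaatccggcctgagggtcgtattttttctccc

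The ETS word stood in the promoters of 17 of the 69 members (24.6%). It stood in 9.93% of all 27025 genes with a promoter and in 19.1% of the 9137 other tested genes with one. The NRF1 word stood in 11 members (15.9%, against 3.05% and 5.76%) and the YY1 word in 9 (13.04%, against 3.19% and 4.94%). At least 1 of the 3 words was in 31 of the 69 members and in 14.9% of all genes with a promoter, tested or not. In Ndufaf4 the NRF1 word lies on both strands of 1 overlapping site whose copies begin at positions −113 and −111 from the start, and again at position 1. In Sdhb it begins at position −54 and in Ndufa6 at −83. The ETS word of Sdhb begins at position 6, and none of the 3 words is in the Cox6b2 window. A match is a run of letters and no measurement of binding.

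Depth, estimated from the smallest steps of the values, was 12.2 to 48.9 M (mega) reads per library with a median of 26.7 M. The summed level of 7 hepatocyte markers was 15.03 to 15.90 (log2 of summed RPKM) in the 80 libraries, and none of 5 pancreatic acinar markers passed the threshold. A summed macrophage list, of which 7 of 8 genes were in the table, ranged from 3.24 to 7.21 in C0, from 3.66 to 4.18 in S10 and from 2.33 to 4.97 in X10. Cells other than hepatocytes were thus present, and their part in the results was not tested. In bulk liver, fewer cells of a type and less RNA per cell cannot be told apart.

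In resting liver the mt- messages were far more abundant than the nuclear ones. On the log2 RPKM scale, which is per length, the mt- members of C0 had a median level of 13.25 (from 8.60 to 14.82) and the nuclear members a median of 6.02 with a highest level of 8.91. Together the 13 mt- members held 22.4% ± 3.36 (SD, n = 9) of the summed RPKM of C0 libraries, with a lowest value of 19.2% and a highest of 29.9%. Over the 80 libraries this share ran from 12.5% to 29.9%, while the 86 nuclear members held 0.84% to 1.45%.

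Among the mt- members of C0, the 3 complex IV subunits were at the top, mt-Co1 at 14.82 ± 0.30 (SD, n = 9), mt-Co2 at 14.24 and mt-Co3 at 14.21. They were followed by mt-Cytb of complex III at 13.83 and mt-Atp6 of complex V at 13.79. The complex I subunits mt-Nd2, mt-Nd4 and mt-Nd1 lay at 13.32, 13.25 and 13.11, which differ by less than the SD of mt-Co1. Below them were mt-Nd3 at 11.99, mt-Nd5 at 11.69, mt-Nd4l at 10.75 and mt-Atp8 at 10.74. The lowest, mt-Nd6 at 8.60, is the only mt- protein gene on the opposite strand, and the nuclear Ndufa4 (8.91) and Cox4i1 (8.74) were above it.

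The nuclear complexes differed in level. Median C0 levels were 5.54 (log2 RPKM) for the 38 genes of complex I, 6.35 for the 4 of complex II, 6.91 for the 8 of complex III, 7.12 for the 13 of complex IV and 6.41 for the 15 of complex V. The 4 complex I assembly genes (Ndufaf1 to Ndufaf4), whose products help to build the complex and are not part of it, ranged from 2.49 to 4.05. The name rule placed Ndufa4 with complex I, although its product is now regarded as a complex IV subunit. It also took in Cox4nb (Emc8), which is no subunit gene, the pseudogene name Atp5l-ps1, and Atp5s and Atp5sl, which are not structural subunits of ATP synthase.

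The isoforms of 1 subunit were unequal. Cox4i1, Cox6a1, Cox6b1, Cox7a2 and Cox8a were in every library above the threshold, while Cox4i2, Cox6a2, Cox7b2, Cox8b and Cox8c, known from lung, muscle or testis, were above it in none. The highest of these 5, Cox6a2, reached −1.95 and the lowest, Cox8c, −4.99. The nuclear members with the lowest maxima were Ndufa4l2, with a highest value of 1.43, and Ndufb2, with 1.90. Ndufa4l2, a paralogue of Ndufa4 that is induced by low oxygen in other cells, was above the threshold of −1.5 in 69 of 80 libraries. Cox6b2, known from testis, was above it in 23 libraries. The other 84 nuclear members and the 13 mt- members were above −1.5 in every library.

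**Figure D1:**
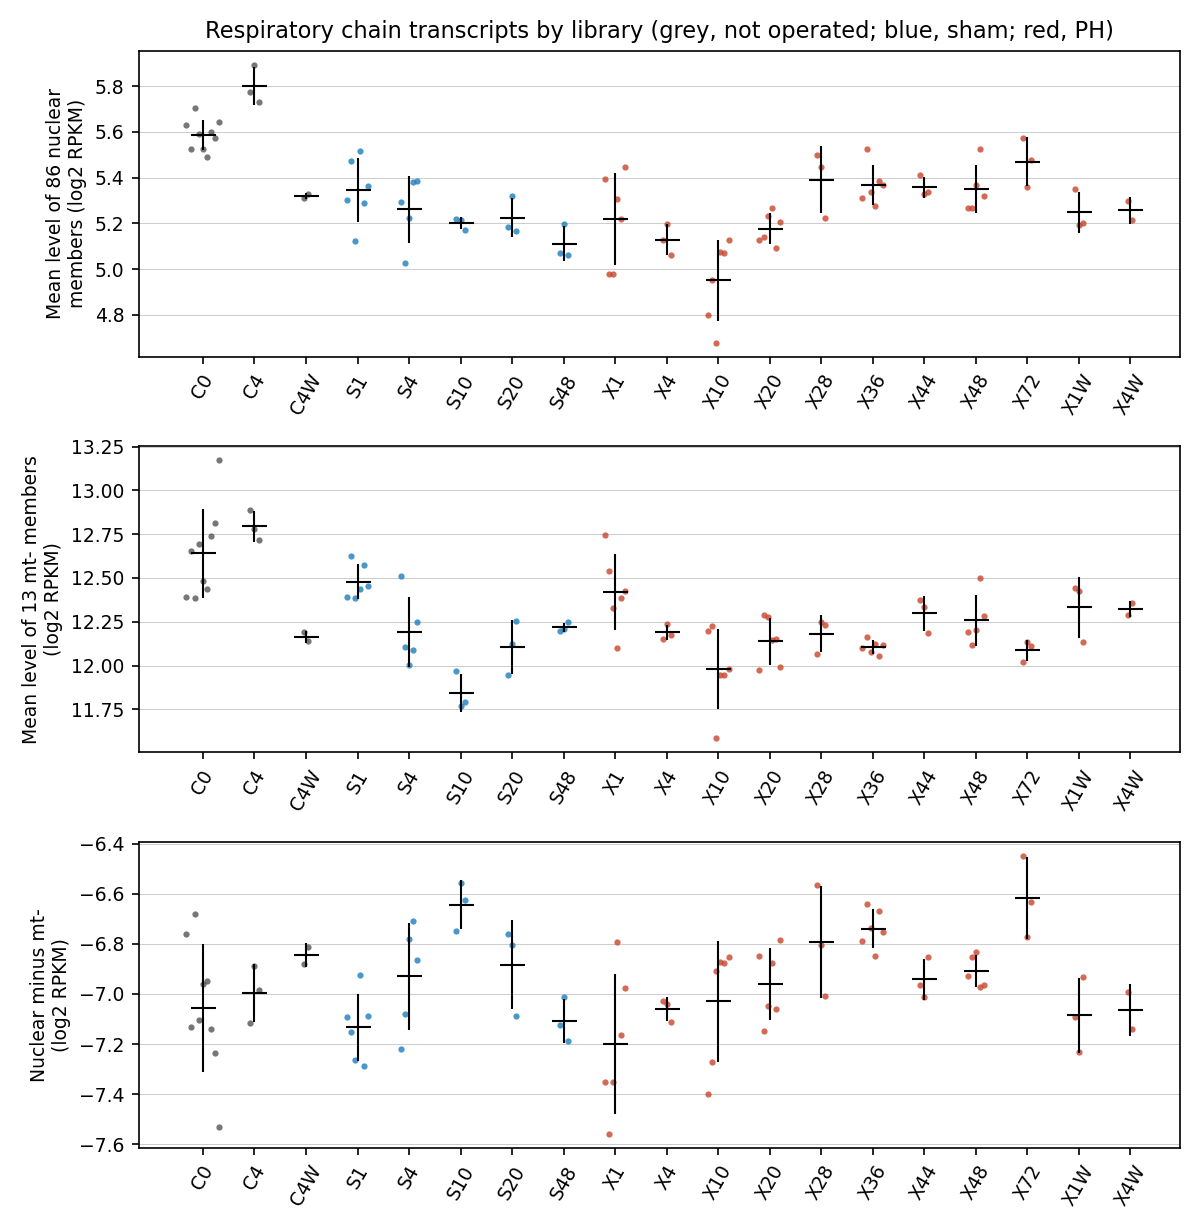
Each point is 1 library, with the mean and SD of each group, for the mean level of the 86 nuclear members (top), of the 13 mt- members (middle) and for their difference (bottom), all in log2 RPKM. The nuclear mean is lowest in X10 (4.68 to 5.13), the mt- mean is lowest in S10 and X10, and the difference of X10 lies below that of S10 in every library.

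The comparison of PH with sham surgery at the same hour asks what removal of tissue adds to surgery. A member was called when limma, fitted over 15396 genes and all 19 groups, gave a Benjamini-Hochberg adjusted p below 0.05 and a change beyond 0.5 on the log2(RPKM + 0.25) scale. Few members were called at any hour. At 1 h none was (of all genes 0.624% were higher and 0.026% lower), and 18 nuclear and 0 mt- members had an unadjusted p below 0.05 in limma. At 4 h none was (3.16% of all genes higher, 5.48% lower), with 20 nuclear members and 1 mt- member at an unadjusted p below 0.05, and 1 or 2 were called when S4 replicate 4 or S4 replicate 5 was left out.

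At 10 h, 1 nuclear member fell and 2 mt- members rose (of all genes 3.4% were higher and 3.62% lower). The nuclear median change was −0.21 and 78 of 86 nuclear values were below 0, against a median of 0.13 for the mt- members and 0.00 for all genes. Without X10 replicate 6 the count was 5. By the study's supplement the S10 livers came from 1 experimental period and the X10 livers from 2, and the labels do not give the period of a library. With X10 replicates 1 to 3 alone, 16 nuclear members fell and 2 mt- members rose, with a nuclear median of −0.32, and with replicates 4 to 6 alone 1 nuclear member fell and 1 mt- member rose, with a nuclear median of −0.11. With a block by replicate number, although the labels do not pair these animals, 6 nuclear members were lower and 2 higher and 2 mt- members higher.

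Ndufa4l2 was −0.73, −0.45 and −0.23 in the 3 S10 libraries (log2 RPKM), and −3.10 at the lowest, −2.11 at the median and −0.84 at the highest of the 6 X10 libraries. It was lower in X10 than in S10 in every library, and it fell by 0.96 on the log2(RPKM + 0.25) scale (SE 0.24, limma with Benjamini-Hochberg adjusted p = 0.00501). The X10 values rest on 3.00 to 12.0 estimated reads per library.

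The 2 mt- members that rose encode complex I subunits. mt-Nd1 was 12.12, 12.16 and 12.37 in S10 and had a lowest value of 12.44, a median of 12.69 and a highest of 13.03 in X10, with no overlap. mt-Nd5 was 10.99, 11.18 and 11.21 in S10 and had 11.50, 11.75 and 12.01 as lowest, median and highest in X10, again with no overlap. The changes were 0.53 (SE 0.15, limma with Benjamini-Hochberg adjusted p = 0.0107) for mt-Nd1 and 0.64 (SE 0.16, adjusted p = 0.00414) for mt-Nd5. Of the other 11 mt- members, mt-Atp6, mt-Co1 and mt-Co2 had 0.23, 0.21 and 0.21, and the lowest value was −0.33 for mt-Atp8.

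At 20 h, Ndufa4l2 was the 1 member called (of all genes 4.49% were higher and 2.61% lower). It was 0.12, 0.19 and 0.49 in S20 and had a median of −0.92 and a highest value of −0.45 in X20, so the groups did not overlap, and it fell by 0.92 (limma with Benjamini-Hochberg adjusted p = 0.00735). The nuclear median was −0.04 and the mt- median 0.02, and the nuclear one turned to 0.05 when every library was set to the same sum. The count was 0 without S20 replicate 2, 3 without S20 replicate 3 and 2 without X20 replicate 5.

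At 48 h, when many hepatocytes divide after PH, 4 nuclear members rose and none fell, while 24.5% of all genes were higher and 2.69% lower, so the share of members that rose (4 of 99) was below that of all genes. The nuclear median was 0.15, the mt- median 0.03 and the median of all genes 0.27. The direction depended on the scale, since 1 member was higher and 5 were lower when libraries were set to the same median of all genes, with a nuclear median of −0.23.

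The 4 members were 1 subunit, 1 assembly factor, 1 gene of no respiratory function and Cox6b2. Cox6b2 passed the threshold mainly in libraries of X36, X44, X48 and X72, so its call is a description and no test. Ndufa8, a complex I subunit with an NRF1 word in its promoter, was 5.84, 6.01 and 6.11 in S48 and 6.48, 6.56, 6.56, 6.62 and 6.65 in X48 (log2 RPKM), without overlap, and rose by 0.59 (SE 0.11, limma with Benjamini-Hochberg adjusted p = 2.63e-05). Ndufaf2, a complex I assembly factor, was 3.27, 3.51 and 3.71 in S48 and 3.79, 4.13, 4.14, 4.17 and 4.19 in X48, again without overlap, and rose by 0.58 (SE 0.11, adjusted p = 2.73e-05). Cox4nb was 1.32, 1.60 and 1.80 in S48 and 2.22 to 2.41 in X48, and rose by 0.68 (SE 0.11, adjusted p = 4.53e-07). Its product belongs to a protein insertion complex of the endoplasmic reticulum, and the gene lies head to head with Cox4i1 on chromosome 8 with 177 bases between them. Cox4i1 itself was 8.22, 8.28 and 8.43 in S48 and 8.30 to 8.46 in X48, with overlap, and differed by 0.04 (SE 0.09, adjusted p = 0.758).

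The change from sham was also compared between 48 h and 10 h. The difference of the differences, (X48 − S48) minus (X10 − S10), added after seeing the data, was above the call limits for 14 nuclear members and below them for none (21.7% of all genes higher, 1.38% lower), and for 0 of 13 mt- members, none of which had an unadjusted p below 0.05 in limma. The share of nuclear members, 16.3%, was below that of all genes, and the median was 0.33 for nuclear members, −0.10 for mt- members and 0.29 for all genes, so the shift of the nuclear members was close to that of all genes. Cox6b2, counted among the 14 with 3.52, passed the threshold mainly through PH groups, so its value is a description. After it, the highest value was 0.94 for Cox4nb (SE 0.15, limma with Benjamini-Hochberg adjusted p = 1.32e-06). Ndufa8 had 0.78 (SE 0.16, adjusted p = 0.00013) and Atp5k, a small subunit of complex V, had 0.75 (SE 0.26, adjusted p = 0.0278).

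**Figure D2:**
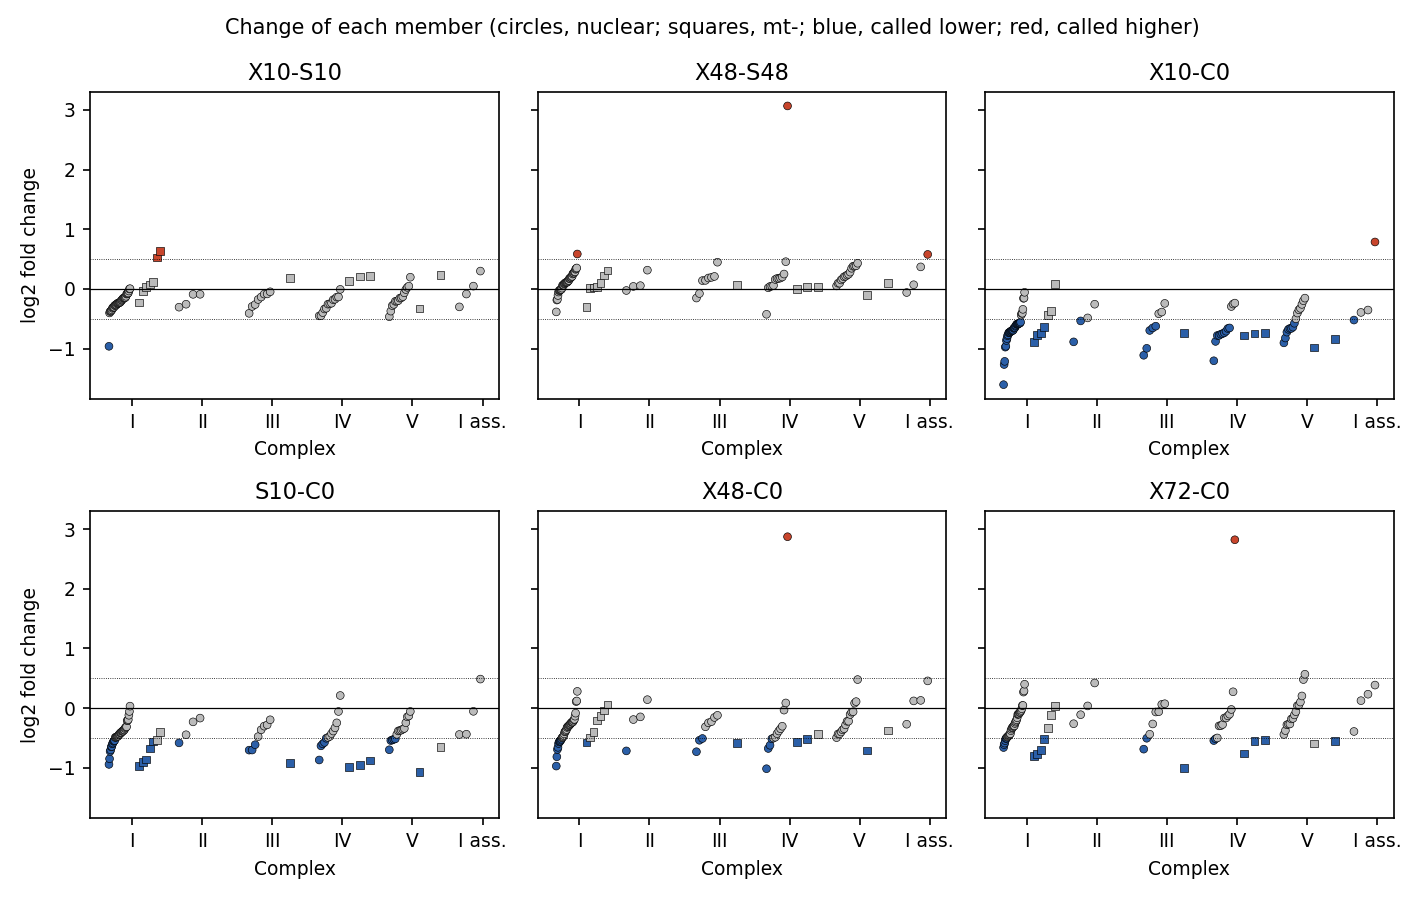
Log2 fold change of each nuclear (circles) and mt- (squares) member by complex in 6 comparisons, sorted within each complex, where blue and red mark members called lower and higher and dotted lines the change of 0.5. The 4 members that are no structural subunit or assembly gene are not drawn, and most complexes lie below 0 in X10 against C0 and near 0 in X10 against S10.

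Against resting liver, most nuclear members were lower 10 h after PH. In X10 against C0, 59 of 86 nuclear members fell and 1 rose (of all genes 15.2% were lower and 21.2% higher), and 10 of 13 mt- members fell and none rose. The median was −0.65 for nuclear and −0.74 for mt- members, and 0.07 for all genes. With libraries set to the same sum, 35 nuclear members were lower and 2 higher and 9 mt- members lower, with a nuclear median of −0.47, and set to the same median of all genes 72 nuclear members were lower and 1 higher and 12 mt- members lower. With C0 replicates 1 to 3, 4 to 6 or 7 to 9 alone as the reference, 73, 61 and 68 members were called in place of 70. The S10 livers, from the same hour, are described below with values of their own against the same C0 livers.

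The largest fall was that of Ndufa4l2, which the name rule places with complex I, as it does its paralogue Ndufa4. It was −0.32 at the lowest, 0.34 at the median and 1.06 at the highest in C0 and −3.10, −2.11 and −0.84 in X10, without overlap, and fell by 1.60 (SE 0.18, limma with Benjamini-Hochberg adjusted p = 1.15e-11). The next were subunits of complex I. Ndufa6, an accessory subunit of the matrix arm, was 7.56 at the lowest, 7.67 at the median and 8.06 at the highest in C0 and 6.09, 6.58 and 6.71 in X10. It was lower in every X10 library than in any C0 library and fell by 1.21 (SE 0.09, limma with Benjamini-Hochberg adjusted p = 1.06e-18). Ndufv3, a small subunit near the NADH site, was 4.53, 4.84 and 5.33 in C0 and 3.27, 3.61 and 3.99 in X10, again without overlap, and fell by 1.27 (SE 0.10, adjusted p = 2.14e-17). In all, 31 of the 38 nuclear complex I genes fell.

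In a grouping chosen after seeing the data, the catalytic core of complex I showed smaller falls than the other genes that the name rule places there. Of its 7 nuclear core subunits 3 fell, with a median of −0.41. Of the 31 other nuclear genes, which include Ndufa4 and Ndufa4l2, 28 fell, with a median of −0.70. Ndufs1, the largest core subunit, was 4.39, 4.93 and 5.11 in C0 and 4.62, 4.75 and 4.79 in X10, with overlap and a difference of −0.06 (SE 0.08, adjusted p = 0.546). Ndufv1, the NADH-binding subunit, had −0.34 (SE 0.06) and Ndufa9, an accessory subunit, fell by 0.56 (SE 0.06, limma with Benjamini-Hochberg adjusted p = 1.12e-13). The core genes are longer, with a median exon length of 2142 bases against 1170, and their lengths and changes are set side by side below.

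Complex II, which has no mt- subunit, gave 2 of 4 genes that fell. Sdhb, the iron-sulfur subunit, was 5.98, 6.11 and 6.20 in C0 as lowest, median and highest and 5.02, 5.25 and 5.41 in X10, without overlap, and fell by 0.89 (SE 0.08, limma with Benjamini-Hochberg adjusted p = 3.92e-16). Sdha, the flavoprotein that oxidises succinate, was 6.01, 6.78 and 6.87 in C0 and 6.23, 6.36 and 6.40 in X10, with overlap, and differed by −0.26 (SE 0.09, adjusted p = 0.00779), which is inside the limit of 0.5.

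In complex III, 5 of 8 nuclear genes fell. Uqcr11, its smallest subunit, fell by 1.11 (SE 0.08, limma with Benjamini-Hochberg adjusted p = 2.17e-18), while the core subunit Uqcrc1 had −0.42 and the Rieske protein Uqcrfs1 −0.39, both inside the limit. In complex IV, 10 of 13 fell. Cox4i1, a regulatory subunit, was 8.53, 8.83 and 8.92 in C0 and 7.95, 8.09 and 8.14 in X10, without overlap, and fell by 0.66 (SE 0.06, adjusted p = 5.67e-14). Cox5a, Cox6a1, Cox6b1, Cox7b and Cox8a fell by 0.76, 0.75, 0.65, 0.71 and 0.78. The isoform Cox7a1, known from heart and muscle, fell by 1.20 (SE 0.23, adjusted p = 8.42e-06), while the values of Cox7a2 and Cox7a2l, −0.25 and −0.29, were inside the limit.

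In complex V, 8 of 15 nuclear genes fell. The catalytic subunit Atp5b was 7.23, 7.82 and 7.91 in C0 and 7.50, 7.55 and 7.62 in X10, with overlap and a difference of −0.15 (SE 0.07, limma with Benjamini-Hochberg adjusted p = 0.0578). Atp5a1 had −0.20 (SE 0.07). Atp5o, of the stalk that links both parts of the enzyme, fell by 0.66 (SE 0.08, adjusted p = 4.09e-11). The 3 genes for the same rotor protein, Atp5g1, Atp5g2 and Atp5g3, had −0.26, −0.33 and −0.35, all inside the limit.

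The mt- members of X10 against C0 spread from −0.98 to 0.08. mt-Co1 was 14.52, 14.77 and 15.37 in C0 as lowest, median and highest and 13.78, 14.12 and 14.27 in X10, without overlap, and fell by 0.74 (SE 0.11, limma with Benjamini-Hochberg adjusted p = 1.45e-08). mt-Atp8, mt-Nd3, mt-Atp6, mt-Co2 and mt-Nd6 fell by 0.98, 0.89, 0.83, 0.78 and 0.77, mt-Co3, mt-Cytb and mt-Nd4 by 0.74 each and mt-Nd2 by 0.64. mt-Nd4l and mt-Nd1 had −0.44 and −0.37, inside the limit. mt-Nd5 was 11.20, 11.72 and 12.25 in C0 and 11.50, 11.75 and 12.01 in X10, with overlap and a difference of 0.08 (SE 0.12, adjusted p = 0.599). Among the 8 members with a copy on chromosome 1, 7 fell with a median of −0.76, and among the 5 without, 3 fell with a median of −0.64. At later hours the classes stood further apart, with 7 of 8 against 1 of 5 in X28 (medians −0.56 and −0.20) and in X36 (−0.71 and −0.35) and 7 of 8 against 2 of 5 in X72 (−0.57 and −0.33). Most mt- members called at those hours thus share reads with chromosome 1, and the part of the copy in their values was not tested.

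**Figure D3:**
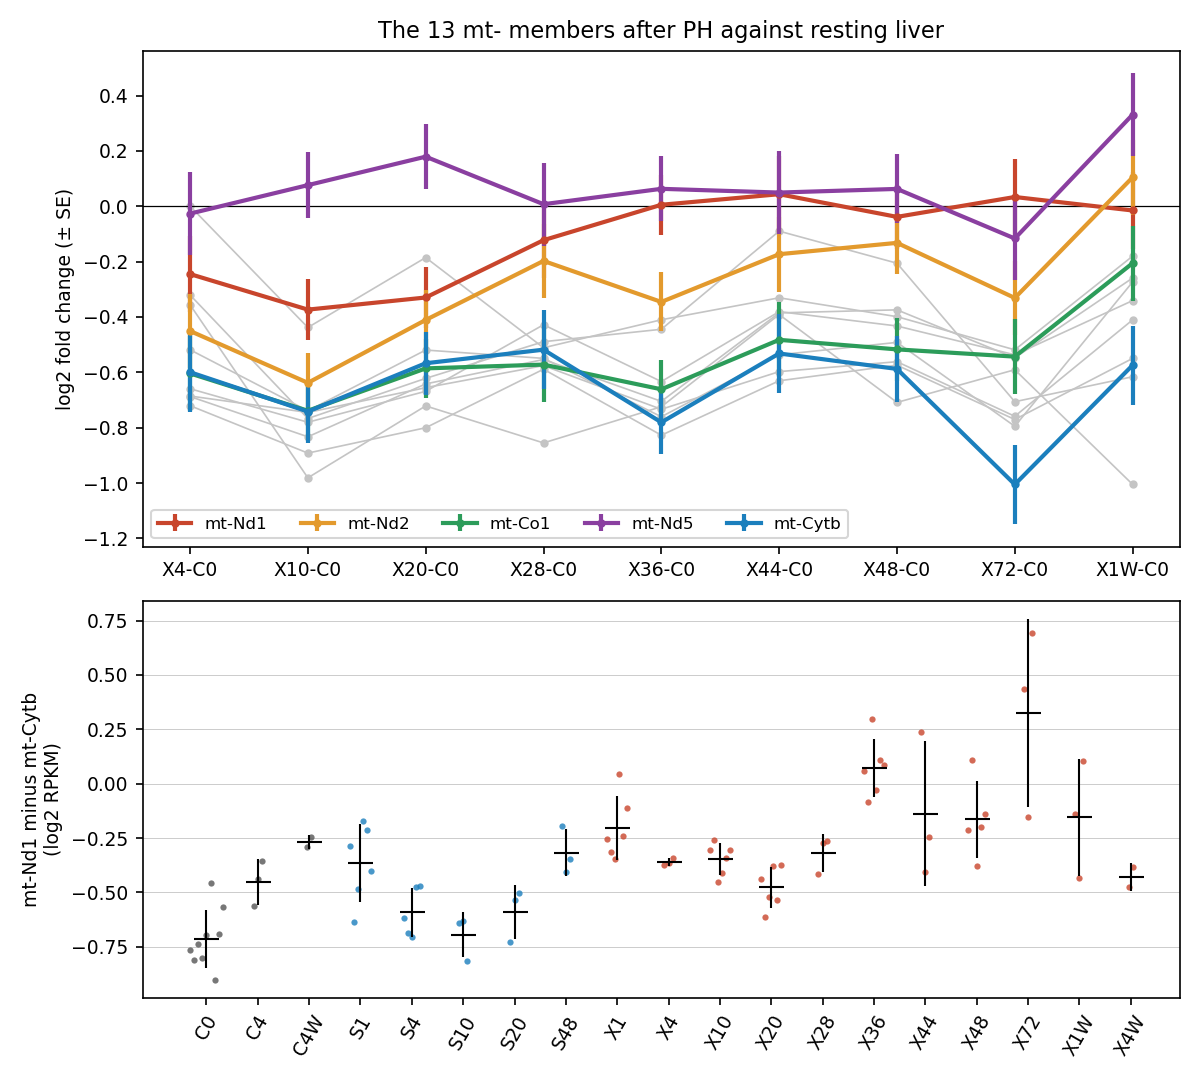
Top, log2 fold change with its standard error of mt-Nd1, mt-Nd2, mt-Co1, mt-Nd5 and mt-Cytb (coloured) and of the other 8 mt- members (grey) in PH groups against C0. Bottom, the level of mt-Nd1 minus that of mt-Cytb in each library (log2 RPKM) with the mean and SD of each group, which is −0.71 in C0 and 0.33 in X72.

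The mt- messages did not keep 1 proportion to each other across the groups, operated or not. Both mt-Nd1 and mt-Cytb lack a copy on chromosome 1, and their ratio within a library does not depend on the scaling of that library. mt-Nd1 minus mt-Cytb was −0.71 ± 0.13 (log2, SD, n = 9) in C0, with a lowest value of −0.90 and a highest of −0.46. It was −0.70 in S10, −0.35 ± 0.07 (n = 6) in X10, 0.07 ± 0.13 (n = 6) in X36, −0.16 ± 0.18 (n = 5) in X48 and 0.33 ± 0.43 (n = 3) in X72. The X10 libraries lay above the S10 libraries without overlap, and so did X4 (mean −0.36) above S4 (mean −0.59), whereas X48 and S48 (mean −0.32) overlapped. X1 and S1 overlapped too, as did X20 and S20. The X4 libraries are replicates 4 to 6 only. S4 replicates 1 to 3 were at −0.62, −0.68 and −0.71, and replicates 4 and 5 both at −0.47. By the study's supplement the S4 livers came from more than 1 period, and its part in this difference was not tested. Operated and unoperated livers at other times lay between, with −0.36 in S1, −0.20 in X1, −0.15 in X1W, −0.27 in C4W and −0.43 in X4W. The unoperated C4 livers were at −0.56, −0.44 and −0.36, and the sham S20 livers at −0.73, −0.53 and −0.50. The ratio thus also differed between unoperated groups, and its part due to surgery was not tested.

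At 72 h mt-Cytb was below C0 and mt-Nd1 was within its range. In the 3 X72 livers mt-Cytb was 12.69, 12.77 and 13.01, below the 13.37 to 14.45 of C0, and it fell by 1.01 (SE 0.14, limma with Benjamini-Hochberg adjusted p = 2.11e-08). mt-Nd1 was 12.86, 13.20 and 13.38 there, within the 12.81 to 13.88 of C0, and differed by 0.03 (SE 0.14, adjusted p = 0.874). mt-Nd4 and mt-Co3, which like mt-Cytb end in an incomplete stop, fell by 0.79 and 0.76, and mt-Nd3, with a whole stop codon, fell by 0.77. mt-Nd2 had −0.33 and mt-Nd5 −0.12, both inside the limit.

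At later hours fewer nuclear members were below C0. In X36, 15 nuclear members fell and 2 rose and 8 mt- members fell (9.29% of all genes lower, 25.7% higher), with medians of −0.28, −0.66 and 0.16 for nuclear members, mt- members and all genes. With libraries set to the same sum, X36 gave 3 nuclear members higher and 4 lower and 6 mt- members lower, and with libraries set to the same median of all genes 2 higher and 56 lower with 11 mt- members lower. Ndufa6 fell by 1.01, Ndufa4l2 by 0.97, Cox7a1 by 0.79 and Uqcr11 by 0.73.

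In X44, 15 nuclear members fell and 3 rose and 4 mt- members fell (8.42% of all genes lower, 30.8% higher). In X48, 19 nuclear members fell and 2 rose and 5 mt- members fell (7.66% lower, 30.4% higher). The nuclear medians were −0.28 and −0.31 beside 0.23 and 0.24 for all genes. Set to the same sum, X44 gave 5 nuclear members higher and 6 lower and X48 gave 5 higher and 4 lower, with no mt- member called in either. Set to the same median of all genes, X44 gave 1 nuclear member higher and 69 lower with 10 mt- members lower, and X48 gave 1 higher and 68 lower with 11 mt- members lower. Cox7a1, Ndufa6, Atp5sl and Ndufa4l2 fell by 1.17, 0.93, 0.88 and 0.85 in X44, and Cox7a1, Ndufa6, Ndufa4l2 and Uqcr11 by 1.01, 0.97, 0.81 and 0.73 in X48.

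In X72, 11 nuclear members fell and 1 rose (6.59% of all genes lower, 26.6% higher), and 9 of 13 mt- members fell. The nuclear median was −0.21 and the mt- median −0.55, beside 0.21 for all genes. The nuclear side depended on the scale, with 9 members higher and 1 lower and a median of 0.05 when libraries were set to the same sum, while the mt- median stayed below 0 at −0.28 with 3 members lower. When mt- genes were left out of each library's sum, 7 nuclear members were higher and 2 lower, with a median of −0.02. Set to the same median of all genes, 1 was higher and 44 were lower, with a median of −0.53. Atp5sl fell by 0.86, Uqcr11 by 0.69, Ndufa1 by 0.66 and Ndufa6 by 0.61, and Atp5b had 0.48 (SE 0.09), inside the limit.

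After 1 week, 33 nuclear members were below C0 and 1 above (4.48% of all genes lower, 12.4% higher), and 4 mt- members were below. The medians were −0.44 for nuclear members, −0.27 for mt- members and 0.12 for all genes. Set to the same sum, 2 nuclear members were higher and 6 lower, and 1 mt- member was higher and 1 lower, and set to the same median of all genes 52 nuclear and 5 mt- members were lower and none higher. Ndufa5, an accessory complex I subunit, fell by 0.96, Cox5b of complex IV by 0.85, Ndufa6 by 0.84 and Ndufs5 by 0.80. The count fell to 22 members without X1W replicate 3.

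Sham surgery alone was followed by lower levels. In S1 against C0, 1 nuclear member fell, Ndufa4l2, by 0.59, and no mt- member was called (5.34% of all genes lower). In S10, 26 nuclear and 10 mt- members fell (11.2% lower), with medians of −0.42 and −0.88. In S20, 23 nuclear and 8 mt- members fell (4.29% lower), with medians of −0.40 and −0.59. In S48, 31 nuclear and 5 mt- members fell (5.05% lower), with medians of −0.45 and −0.47. No member rose in these 4 comparisons, but the share of all genes that rose is not given here. The medians of all genes were −0.12 in S1, 0.07 in S10, 0.04 in S20 and −0.03 in S48. With libraries set to the same sum the nuclear and mt- members that fell were 11 and 9 in S10, where 2 nuclear members rose, 11 and 7 in S20 and 16 and 2 in S48. With C0 replicates 4 to 6 alone as the reference they were 9 and 10 in S10, 8 and 4 in S20 and 18 and 1 in S48. The S1 count was 2 or 3 when any of C0 replicates 2, 5 and 6 or of S1 replicates 1, 2, 4 and 6 was left out. For X1 and X20, after PH at the hours of S1 and S20, only medians against C0 are given. In X1 they were −0.35 for nuclear and −0.27 for mt- members, beside −0.11 for all genes. In X20 they were −0.46 and −0.59, beside 0.11 for all genes.

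Some of the sham falls were as large as those after PH at the same hour, and others were smaller. In S10, Ndufa6 was 6.83, 6.90 and 6.94 and Ndufv3 3.86, 3.91 and 4.05, below every C0 library, and they fell by 0.85 and 0.94, less than in X10. mt-Co1 was 13.80, 13.82 and 13.99 in S10, also below every C0 library. Cox7a1 fell by 0.87 in S10 and 0.99 in S20, Ndufa5 by 0.77 in S20 and 0.87 in S48 and Cox5b by 0.85 in S48. In S48 Ndufs5 and Ndufb10 fell by 0.77 and 0.74, and Sdhb fell by 0.70 in S20. Atp5l-ps1, which shares sequence with Atp5l, fell by 1.11 in S10 and 1.04 in S20. These comparisons and those of the PH groups use the same C0 livers.

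The livers taken at ZT6 can be set against unoperated livers of the same hour or against C0. C4 itself gave no call against C0 (2.08% of all genes lower), with 41 nuclear and 5 mt- members at an unadjusted p below 0.05 in limma. The medians were 0.21 and 0.14, beside 0.07 for all genes, and 11 of 86 nuclear values were below 0. The share of all genes higher is not given here, so the lack of rises cannot be set against it. Between 1 and 4 were called when any of the 3 C4 livers or C0 replicates 5, 7, 8 or 9 was left out. Against C4, 42 nuclear and 9 mt- members fell in S4 (31.0% of all genes lower), 58 and 9 in X4 (33.9% lower) and 32 and 9 in X28 (18.3% lower). All C4 livers come from the same experimental period, so period and surgery cannot be told apart in these counts.

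Against C0, added after seeing the data, the counts were smaller. In X4, 29 nuclear and 7 mt- members fell and 1 rose (26.9% of all genes lower, 11.2% higher). In S4, 8 nuclear and 6 mt- members fell and 1 rose (22.7% lower, 11.7% higher). In X28, 8 nuclear and 8 mt- members fell and 1 rose (11.3% lower, 13.6% higher). Without C0 replicate 9 the X28 count of members was 10 and not 17. In S4 the share of nuclear members that fell, 8 of 86, was below that of all genes and the share of mt- members, 6 of 13, above it. In X4 both shares, 29 of 86 and 7 of 13, were above that of all genes. Ndufa4l2 was −3.27, −2.28 and −2.18 in X4 and between −2.30 and −1.02 in S4, below the −0.32 to 1.06 of C0, and fell by 1.84 and 1.29. X4 rests on 2.99 to 5.99 estimated reads of this gene per library.

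After 4 weeks X4W and C4W gave no member call (0.0325% of all genes higher and 0.0325% lower), with 1 nuclear and 0 mt- members at an unadjusted p below 0.05 in limma. C4W itself, unoperated, was below C0 for 6 nuclear and 6 mt- members (1.89% of all genes lower), with medians of −0.27 and −0.55, a comparison also added after seeing the data. With C0 replicates 4 to 6 alone as the reference, 2 members were called. By the study's supplement the C4W livers came from 1 experimental period and the C0 livers from more than 1. The part of period and age was not tested. With 2 livers in C4W, no member was called when either was left out.

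A few nuclear members went against the others. Ndufaf4, a complex I assembly factor whose promoter holds the NRF1 word at 2 places, was 2.28 at the lowest, 2.50 at the median and 2.80 at the highest in C0, 2.84, 3.37 and 3.55 in X10 and 3.15, 3.39 and 3.58 in X36. Neither PH group overlapped C0, and it rose by 0.79 in X10 (SE 0.10, limma with Benjamini-Hochberg adjusted p = 5.4e-10) and 0.86 in X36 (SE 0.10, adjusted p = 3.78e-11). It also rose by 0.57 in X4, 0.62 in X28 and 0.51 in S4. Against S10 the value for X10 was 0.30 (SE 0.14, adjusted p = 0.149), so a difference from sham was not shown. Ndufaf2 rose by 0.63 and Cox4nb by 0.74 in X44, and Cox4nb by 0.66 in X48 (SE 0.08, adjusted p = 2.14e-10).

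Cox6b2 was above −1.5 in 17 of the 17 libraries of X36, X44, X48 and X72 and in 6 of the other 63. Its membership used these levels, so its differences are given as a description, also where it is counted among members that rose. It was at 0 to 0.365 RPKM in C0, where 1 of 9 libraries listed it at 0 and the highest held 5.99 estimated reads, and at 0 to 0.2496 in S48. The 6 livers of X36 had 0.375 to 6.39 RPKM and the 3 of X44 had 1.58 to 3.10. The X48 livers had 1.63 to 5.57 and the X72 livers 1.92 to 3.99 RPKM, the X48 values resting on 18.96 to 119 reads. In X1W it was at 0.321 to 0.796. Every X44, X48 and X72 library was above the highest C0 and S48 library. On the log2(RPKM + 0.25) scale the differences from C0 were 2.16 for X36, 2.57 for X44, 2.87 for X48, 2.82 for X72 and 0.89 for X1W, values that depend on the 0.25 added. Cox6b1, the isoform used in liver, was at 8.18 (log2 RPKM) in C0 and had −0.30 (SE 0.08) in X48.

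**Figure D4:**
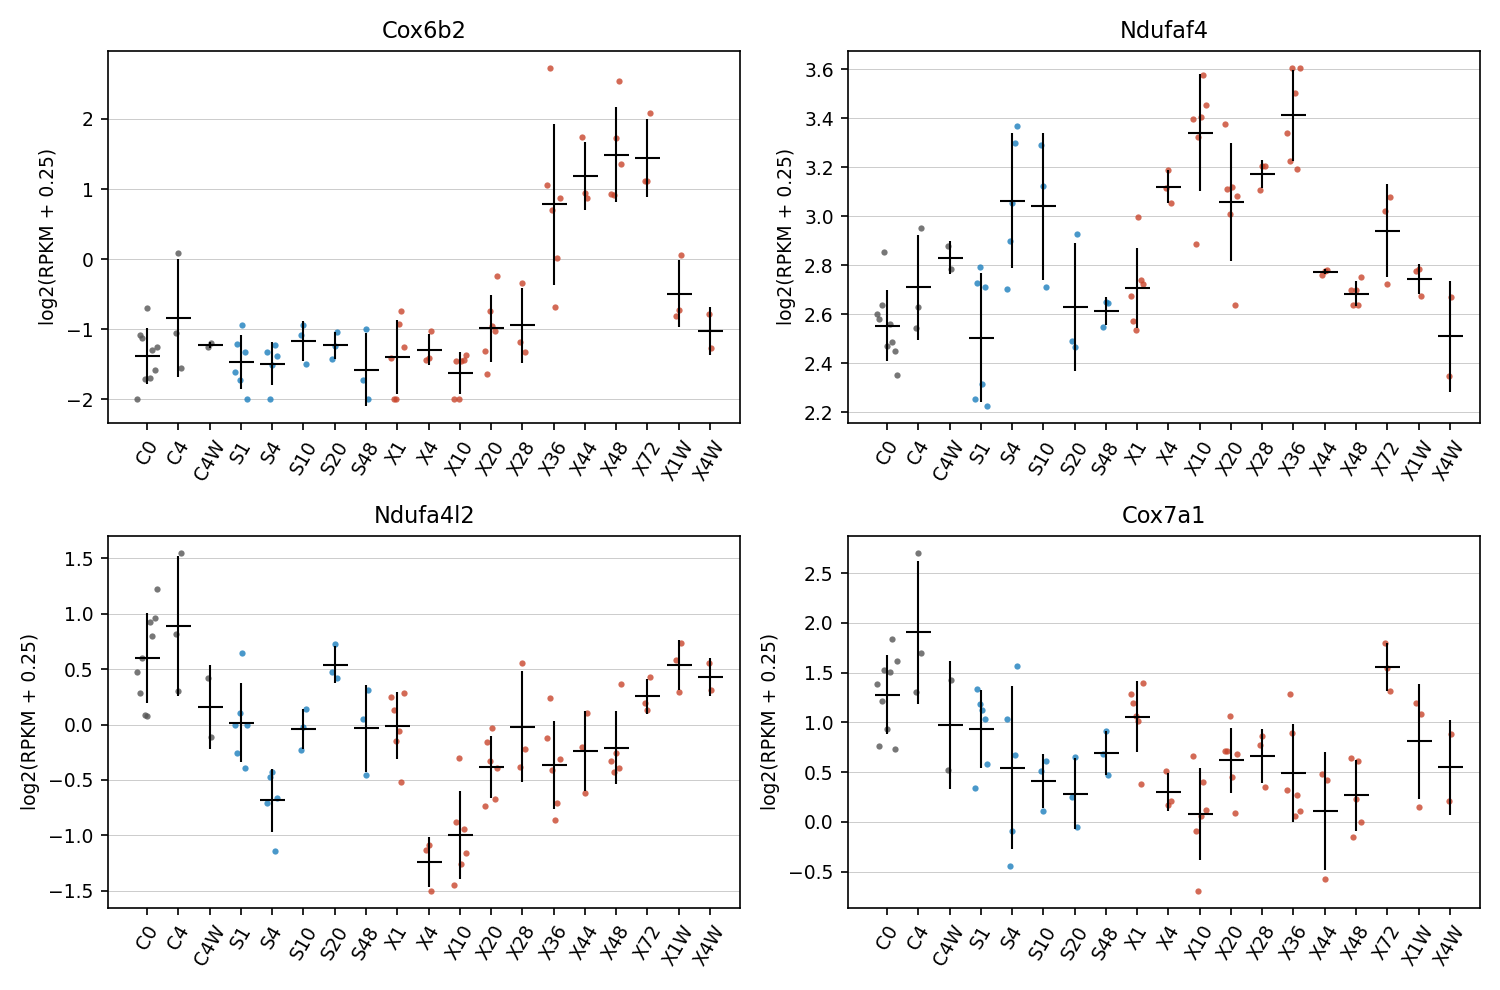
Values per library on the log2(RPKM + 0.25) scale, with the mean and SD of each group, for Cox6b2, Ndufaf4, Ndufa4l2 and Cox7a1 in unoperated (grey), sham (blue) and PH (red) livers. Cox6b2 is high from X36 to X72, Ndufaf4 in X10 and X36, and Ndufa4l2 is lowest in X4 and X10.

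The isoform genes with low levels had patterns of their own. Cox7a1 was 0.49, 1.24 and 1.74 in C0 as lowest, median and highest, −1.44, −0.30 and 0.41 in X10 and −0.27, 0.23 and 0.36 in S10. Neither operated group overlapped C0, the 2 overlapped each other, and the difference of X10 from S10 was −0.34 (SE 0.31, limma with Benjamini-Hochberg adjusted p = 0.57). The falls of Cox7a1 rest on few estimated reads per library. These were 5.99 to 14.0 in S10, 3.99 to 9.98 in S20, 6.99 to 17.0 in X36, 3.99 to 12.0 in X44 and 4.99 to 17.9 in X48. Skeletal muscle markers, of which 1 of 7 passed the threshold, summed to −1.45 to −0.51 in C0 and −1.90 to −0.99 in X10 (log2 of summed RPKM). Their part in the Cox7a1 values was not tested.

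The balance of both genomes was taken as the mean level of the nuclear members minus that of the mt- members in each library. It was −7.05 ± 0.26 (log2 RPKM, SD, n = 9) in C0, −6.64 ± 0.10 (n = 3) in S10 and −7.03 ± 0.24 (n = 6) in X10. The 3 S10 libraries lay between −6.75 and −6.56 and the 6 X10 libraries between −7.40 and −6.85, without overlap, a difference of −0.39. With the 84 nuclear members above the threshold in every library the difference was −0.32, also without overlap. In a split chosen after seeing the data, X10 replicates 1 to 3 alone gave a difference of −0.55 and replicates 4 to 6 alone −0.22, and the S10 livers come from 1 period as given above. The mt- share of summed RPKM within C0 was 25.8% in replicates 7 to 9 and 20.7% in replicates 1 to 3 and 4 to 6.

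At 48 h the balance went the other way, by 0.20 from S48 to X48 without overlap. This rested in part on low members, since with the 84 members it was 0.11 with overlap, and as a difference of medians it was −0.08. The X36 mean of −6.74 was 0.32 above that of C0, but as a difference of medians over members this was −0.00253 (nuclear minus mt- level, X36 minus C0). The X72 mean of −6.62 was 0.44 above that of C0, beside a lower mt- mean (12.09 against 12.64) and a nuclear mean of 5.47 against 5.59. The mt- share of summed RPKM was 13.1% in S10, 15.6% in X10 and 21.5% in X1W.

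In some comparisons the changes of the nuclear members ran with transcript length. Exon lengths ranged from 312 to 6883 bases with a median of 1304.5. In X10 against C0, 27 of 32 members of up to 1 kb fell (median −0.71, all genes of that length −0.06), 19 of 27 of 1 to 2 kb (−0.59, all genes −0.08) and 13 of 27 of over 2 kb (−0.49, all genes 0.18). Pearson's r of change and log2 length over the 86 members was 0.38 in X10 against C0, 0.32 in S10 against C0 and 0.45 in X1 against S1. It was −0.33 in C4 against C0, −0.03 in X48 against S48, and 0.13, 0.07, 0.06 and 0.08 in X36, X44, X48 and X72 against C0. By ranks the later hours differed less from X10. Spearman's rho was 0.37 in X10 and 0.26 in S10 against C0, and 0.24, 0.22, 0.24 and 0.24 in X36, X44, X48 and X72. It was 0.50 in X1 against S1, −0.28 in C4 against C0 and 0.09 in X48 against S48. Genes of 1 library share its RNA quality and preparation, so this is a description. Length classes were chosen after seeing the data, and the part of RNA quality was not tested.

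**Figure D5:**
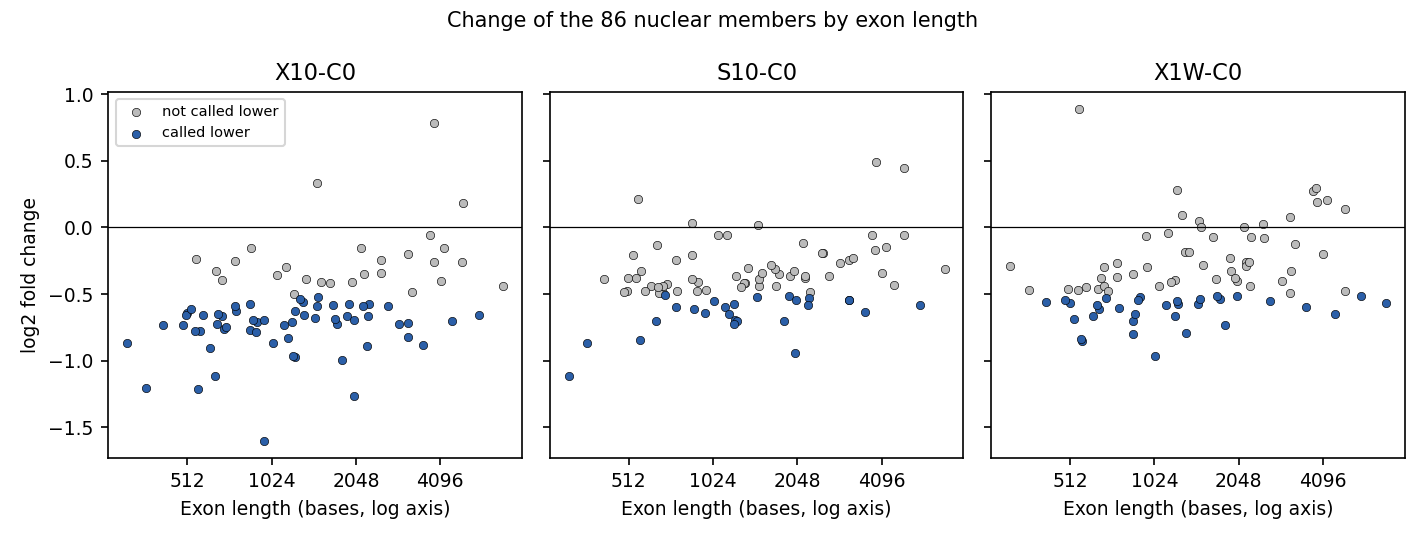
Log2 fold change of the 86 nuclear members by exon length (bases, log axis) in X10, S10 and X1W against C0, with members called lower in blue. Members of up to 1 kb are mostly blue in X10 (27 of 32) and members of over 2 kb less often (13 of 27).

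The promoter words can be set beside the changes. In X10 against C0 all 17 members with the ETS word fell (median −0.70), as did 33 of the 52 with a promoter but without the word (median −0.59). Among other tested genes, 7.40% of those with the word were lower and 17.7% of those without. With the NRF1 word 7 of 11 members fell and without it 43 of 58, and with the YY1 word 7 of 9 and without it 43 of 60. Among other tested genes 8.37% of those with the NRF1 word were lower against 16.2% without, and 6.43% of those with the YY1 word against 16.2%. Ndufaf4 and Ndufa6, which both hold the NRF1 word, moved in opposite directions.

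Genes around the chain, outside the rule, were counted in the same way. In X10 against C0, where 21.2% of all genes were higher and 15.2% lower, of 11 nuclear regulators of respiratory genes 5 rose and none fell, Pprc1 by 1.78 and Ppara by 1.70 among them. Of 17 genes for mitochondrial RNA processing 6 rose and 1 fell, of 13 for its transcription and replication 2 rose and 1 fell, and of 76 mitochondrial ribosome genes 2 rose and 10 fell. Of 14 tricarboxylic acid cycle genes 5 rose and 3 fell, with 1.99 for Fh1, the fumarase. Of 27 assembly factors outside the rule 4 rose and 2 fell, and of 10 ubiquinone genes 1 rose and 1, Adck3, fell by 5.55. Of 8 electron carriers and other subunits none rose and 3 fell, Atpif1, an inhibitor of ATP synthase, by 1.24.

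Against sham at 10 h, 3.4% of all genes were higher and 3.62% lower. Of 11 regulators 2 rose, Ppargc1a and Pprc1, both coactivators of respiratory genes, by 1.45 and 0.76. Of 14 tricarboxylic acid cycle genes 3 rose, Fh1, Idh3a and Dlst, by 0.74, 0.62 and 0.56. Of 10 ubiquinone genes 1 rose and 1 fell, and 1 of 17 RNA processing and 1 of 76 ribosome genes fell. None of the 13 transcription genes, 27 assembly factors and 8 carriers was called. At 48 h against sham 13 of 76 ribosome genes, 6 of 17 RNA processing genes, 6 of 27 assembly factors, 5 of 14 cycle genes, 4 of 11 regulators, 4 of 10 ubiquinone genes, 3 of 13 transcription genes and 2 of 8 carriers rose, beside 24.5% of all genes. Sco2 and Adck3 fell, and none of the others did. Atpif1 rose by 1.33, Pdss1, an enzyme of ubiquinone synthesis, by 1.15, Idh3a by 1.06 and cytochrome c (Cycs) by 0.90. The structural subunits called at that hour were Ndufa8 and Cox6b2, whose call is a description as given above.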

How the data were processed

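Poly(A)-selected RNA of individual livers was sequenced as 100-nt single-end, strand-specific libraries. The authors trimmed the reads with Cutadapt and prinseq-lite, mapped them with TopHat2 2.0.13 and Bowtie2 to mm9, first to annotated coding sequences, and used SAMtools 0.1.19 and featureCounts, with names and versions as in the submitters' processing notes and the study's methods. Reads were counted per Ensembl 67 gene, a read with several positions as an equal fraction at each. The authors deposited log2 RPKM values, that is, counts per kilobase and per M (mega) mapped reads on a log2 scale, with genes without reads listed at the lowest value, −14.29. A library in which a few abundant messages, such as the mt- ones, change therefore shifts all others. The table had 84 columns, of which 80 carry the name of 1 labelled sample. The other 4 columns were not used, and 7 labelled samples without a column were not analysed here.

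The 15396 genes above −1.5 in 1 or more libraries entered 1 linear model in limma 3.58.1 (R 4.3.3), with 1 term per group for the 19 groups and log2(RPKM + 0.25) as the response. Benjamini-Hochberg adjustment covered the 15396 genes of a comparison. Calls needed an adjusted p under 0.05 with a log2 change past 0.5 in size. Fold changes on this scale understate those of low genes. Replicates are separate animals. The fit was tested on simulated data. Near-identical copies were sought with blastn 2.17.0 in mm9. Named were the 13 mt- members, the 4 nuclear members with the largest calls in each direction of a comparison, chosen subunits of each complex, isoform genes, members at the threshold and members against the common direction, and genes of other lists only where called. The members and lists were chosen with earlier results of these data known. Other pseudocounts, filters, scalings, thresholds, a replicate block, 2 groups alone, C0 triplicates and leaving out each replicate were tried, as described in the closing section. The deviations of same-numbered libraries of different groups had a median correlation of 0.0271, above 0.1 in 24 of 94 pairs. Those of differently numbered libraries had a median of −0.00542, above 0.1 in 88 of 666 pairs. The labels do not pair the animals, and whether the numbers follow a shared condition such as the period was not tested.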

Additional observations from a re-analysis of the deposited data

Results flagged for a closer look

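Single libraries stood apart from the others of their group in 11 of 160 sets of values tested, where chance alone gives about 1 in 20. At 1 h, mt-Cytb was 13.86 (log2 RPKM) in S1 replicate 2 and 13.37 to 13.54 in the other 5 S1 livers, and Cox7a1 was 0.076 in X1 replicate 5 and 0.82 to 1.26 in the others. At 10 h after PH, Ndufa6 was 6.09 in X10 replicate 3 (others 6.49 to 6.71) and Ndufaf4 2.84 in X10 replicate 2 (others 3.29 to 3.55). At 20 h, Uqcr11 was 6.29 in X20 replicate 1 (others 6.41 to 6.48). At 36 h, the mt- share of summed RPKM was 19.2% in X36 replicate 2 (others 15.8% to 16.9%) and mt-Co1 was 14.04 in X36 replicate 5 (others 14.16 to 14.21). At 48 h, Ndufa4l2 was 0.055 in X48 replicate 5 (others −1.02 to −0.77) and Ndufaf2 3.79 in X48 replicate 2 (others 4.13 to 4.19). In X48 replicate 4, Ndufv3 was 4.39 (others 4.10 to 4.18) and Uqcr11 6.84 (others 6.54 to 6.59).

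The difference between PH and sham was not the same at 48 h and 10 h for 14 of 86 nuclear members (16.3%, against 21.7% of all genes higher), by limma on the difference itself with Benjamini-Hochberg adjustment. The 4 with the highest values were Cox6b2 with 3.52, Cox4nb with 0.94, Ndufa8 with 0.78 and Atp5k with 0.75 on the log2(RPKM + 0.25) scale, all higher at 48 h. Cox6b2 is counted among the 14 although its membership used its levels after PH, so its value is a description.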

How the results depend on the processing

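Counts below are members called, with the reported count first. In X10 against C0 the count of 70 was within 1.5 times of itself in every alternative tried but 1, the same sum in each library (TPM scale), with 46. On that scale the other counts that moved were X20-S20 1 to 2, X48-S48 4 to 7, X36-C0 25 to 13, X44-C0 22 to 11, X48-C0 26 to 9, X72-C0 21 to 13, X1W-C0 38 to 10, S4-C4 51 to 33, X28-C4 41 to 20, S10-C0 36 to 22, S20-C0 31 to 18, S48-C0 36 to 18 and X28-C0 17 to 3, and the split of X28-C4 was 3 nuclear members higher and 15 lower with 2 mt- members lower. With the mt- genes left out of the sum, X20-S20 gave 2, X48-S48 10, X36-C0 16, X44-C0 11, X48-C0 12, X72-C0 13, X1W-C0 10, S1-C0 2, X28-C0 9 and C4W-C0 21. Set to the same median of all genes, X36-C0 gave 69, X44-C0 80, X48-C0 80, X72-C0 56, X4-C4 40, S10-C0 76, S20-C0 55, X4-C0 17, X28-C0 29 and C4W-C0 23. With only C0 replicates 1 to 3, C4-C0 gave 6, S1-C0 2 and X28-C0 10. With only C0 replicates 4 to 6, X36-C0 gave 16, X44-C0 14, X72-C0 12, X1W-C0 20, C4-C0 15, S1-C0 0, S10-C0 19, S20-C0 12, S48-C0 19, X4-C0 13, S4-C0 8, X28-C0 7 and C4W-C0 2. With only C0 replicates 7 to 9, X44-C0 gave 40, X48-C0 40, X72-C0 35, S1-C0 24, S4-C0 38, X28-C0 26 and C4W-C0 29. With replicates 1 to 3 of both groups alone, X1-S1 gave 1, X10-S10 18 and X20-S20 5. With a replicate block, although the labels do not pair the animals, X4-S4 gave 1, X10-S10 10, X20-S20 5, X44-C0 12, X48-C0 16, X72-C0 10, X1W-C0 18, C4-C0 15, S1-C0 0, S4-C0 7 and X28-C0 3. With the mean above 0 (log2 RPKM) as the filter, X4-S4 gave 1, X20-S20 0 and S1-C0 0. A pseudocount of 0.1 gave 1 in C4-C0 and of 1 gave 0 in S1-C0, and the fit of 2 groups alone gave 0 in S1-C0 and 1 in C4W-C0. At any fold change the counts were X4-S4 5, X10-S10 14, X20-S20 6, X48-S48 25, X36-C0 69, X44-C0 62, X48-C0 75, X72-C0 57, X1W-C0 73, C4-C0 26, S4-C4 81, X28-C4 68, S1-C0 57, S10-C0 82, S20-C0 70, S48-C0 75, X4-C0 81, S4-C0 77, X28-C0 53 and C4W-C0 38. At an adjusted p below 1e-07, the limit of the study, they were X10-S10 0, X20-S20 0, X48-S48 1, X36-C0 15, X44-C0 9, X48-C0 11, X72-C0 4, X1W-C0 4, S4-C4 17, X4-C4 27, X28-C4 6, S1-C0 0, S10-C0 12, S20-C0 1, S48-C0 2, X4-C0 14, S4-C0 5, X28-C0 0 and C4W-C0 0. Leaving out 1 replicate at a time gave ranges of 0 to 2 (X4-S4), 2 to 5 (X10-S10), 0 to 3 (X20-S20), 22 to 44 (X1W-C0), 0 to 4 (C4-C0), 1 to 3 (S1-C0), 10 to 18 (X28-C0) and 0 to 15 (C4W-C0), where the lone C4W liver left is assumed to vary like the other groups, and the X1W count of 22 was without X1W replicate 3. As a difference of medians over members, the nuclear minus mt- level, X36 minus C0, was −0.00253 (reported 0.32) and the nuclear minus mt- level, X48 minus S48, was −0.085 (reported 0.20). As shares of estimated reads the mt- share was 14.4% in C0, 8.87% in X10 and 7.58% in S10. Of 145 called values of 16 named members under these alternatives, 2963 refits kept direction and side of the threshold, 290 kept the direction and missed the threshold, and none changed sign. Of 27 named values that were not called, 623 refits kept direction and side, 22 kept the direction and passed the threshold and 19 changed sign. Those that changed sign were, with the same median, Cox4i1 in X48-S48 (−0.34), mt-Nd5 in X10-C0 (−0.11) and mt-Nd1 in X72-C0 (−0.30). With the same sum they were Ndufs1 (0.12) and Atp5b (0.028) in X10-C0 and mt-Nd5 in X72-C0 (0.15), and without mt- genes in the sum Ndufs1, X10-C0, not called (0.00267) and mt-Nd5 in X72-C0 (0.068). With C0 replicates 7 to 9 they were Ndufs1 (0.32), Sdha (0.19), Atp5b (0.15), Atp5a1 (0.034) and mt-Nd5 (−0.21) in X10-C0 and mt-Nd1 in X72-C0 (−0.34), and for mt-Nd5 in X72-C0 the replicate block (0.013) and C0 replicates 1 to 3 (0.14). Leaving out 1 replicate gave −0.00438 to 0.10 for Cox4i1 in X48-S48, below 0 without S48 replicate 1, and −0.084 to 0.18 for mt-Nd1 in X72-C0, below 0 without C0 replicate 1 or X72 replicate 3. The cause of these shifts was not tested.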
